A study of Mus musculus with 12 samples.

Results

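The genes described are 10 heat shock and chaperone genes: Hspa1a, Hspa1b, Hspa8, Hspa5, Hsp90aa1, Hsp90ab1, Hsph1, Dnajb1, Hspd1 and Hspe1. They were chosen by symbol, with earlier results of these data known. Each was found as 1 row among the 55401 gene rows of the count table. The libraries come from cells labelled as astrocytes and sorted from the brains of CD51-Flp; Rosa-CAG-FSF-tdTomato mice, in which Flp recombinase made under CD51 switches on the red reporter tdTomato for good. CD51 is integrin alpha-v, the product of Itgav. There were 4 groups of 3 libraries: hippocampus CD51+, hippocampus CD51-, cortex CD51+ and cortex CD51-. CD51+ cells were tdTomato+ and GFP+, and CD51- cells were GFP+ without tdTomato, so every group was sorted for GFP. What drives GFP, the age of the mice, any treatment and whether libraries of a group came from separate animals are not given in the sources used here, so p-values measure the spread between these libraries, which may be technical. Each library was placed by its title. Its name in the count table carries a G for titles with CD51+ and a GT for titles with CD51-, which could point to the opposite class, and with the classes exchanged each CD51 difference given here takes the other sign.

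Chaperones bind unfolded stretches of other proteins and help them fold, move or be degraded. HSP70 proteins do this in cycles of ATP use, driven by J-domain proteins such as Dnajb1 and reset by exchange factors such as Hsph1, and HSP90 proteins finish the folding of signalling proteins and hormone receptors. When unfolded proteins build up, heat shock factor Hsf1 is released and binds heat shock elements in front of Hspa1a, Hspa1b, Dnajb1 and other genes, while unfolded protein in the endoplasmic reticulum (ER) raises Hspa5 through ER stress elements. Hspa1a and Hspa1b are also known as genes that cell dissociation and sorting can switch on.

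Across the 12 libraries, total counts ran from 4351897 to 12847183 per library. Mitochondrially encoded genes took 49.9 to 53.3% of the counts in hippocampus CD51+ libraries, against 20.2 to 29.4% in hippocampus CD51- libraries. In cortex they took 36.5 to 71.1% in CD51+ libraries, against 22.5 to 38.6% in CD51- libraries. Itgav itself was at 369 ± 44.4 CPM (counts per 1000000 counts of the library) in hippocampus CD51+ libraries and 381 ± 172 CPM in hippocampus CD51- libraries, and at 584 ± 274 CPM in cortex CD51+ libraries and 311 ± 56.7 CPM in cortex CD51- libraries (SD, n = 3 each). Itgav did not pass the test in either region (edgeR adjusted p = 0.984 in hippocampus and 0.269 in cortex). CPM values here use library sizes scaled by TMM (trimmed mean of M values). All 12 astrocyte markers of the fixed list were detected in every group, with a summed level of 42570 to 54480 CPM in hippocampus CD51+ libraries, against 12710 to 14970 CPM in hippocampus CD51- libraries. In cortex that sum was 50400 to 68670 CPM in CD51+ libraries, against 3998 to 12650 CPM in CD51- libraries. The CD51- groups went against the label. Per kilobase of exon, the astrocyte markers summed to 1570 ± 177 CPM in hippocampus CD51- libraries, beside 2954 ± 1994 for the 9 oligodendrocyte markers and 2877 ± 518 for the 12 microglia markers. In cortex CD51- libraries the astrocyte sum was 921 ± 627 CPM per kilobase, beside 5491 ± 2163 for oligodendrocyte and 4336 ± 445 for microglia markers. The CD51+ groups had 5795 ± 817 (hippocampus) and 6985 ± 1042 CPM per kilobase (cortex) of astrocyte markers, beside at most 677 for either other list in any library (SD, n = 3 each). Groups are therefore called libraries of a CD51 class.

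The first comparison asked whether the chaperone genes differ between CD51+ and CD51- libraries. Averaged over the regions, 5 of the 10 genes were lower in CD51+ libraries at an adjusted p under 0.05 by the quasi-likelihood test of edgeR: Hspa1a, Hspa1b, Hspa5, Hsp90aa1 and Hsph1. None was called higher, and all 10 had a log2 fold change below 0. Over all 12613 genes tested, 22.7% were called in that comparison, 13.9% lower and 8.87% higher. In cortex 4 of the 10 were called lower (Hspa1a, Hspa1b, Hspa5 and Hsp90aa1) and none higher, against 11.3% of all tested genes called, 6.27% lower and 5.05% higher. Hspa1a alone was left called there without cortex CD51+ replicate 1, cortex CD51- replicates 1 or 2 or hippocampus CD51- replicate 2, with upper-quartile factors and in the fit of cortex alone (1 of 10). In hippocampus 2 of the 10 were called lower (Hspa1a and Hspa1b) and none higher, against 3.31% of all tested genes called, 2.7% lower and 0.618% higher. All 10 genes passed the filter on low counts. Their median log2 fold change, CD51+ over CD51-, was -1.11 in hippocampus and -1.75 in cortex, beside -0.22 and -0.03 for all tested genes. In hippocampus, 6 of the 10 had all CD51+ libraries below all CD51- libraries, against 16.7% of all tested genes. In cortex 7 of the 10 did, against 16.6% of all tested genes, and 5 of the 10 did so in both regions, against 8.48%. The log2 fold change was below 0 in both regions for 9 of the 10, all but Hspe1, against 35.8% of all tested genes. The counts describe the genes and are no test of the family.

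**Figure D1:**
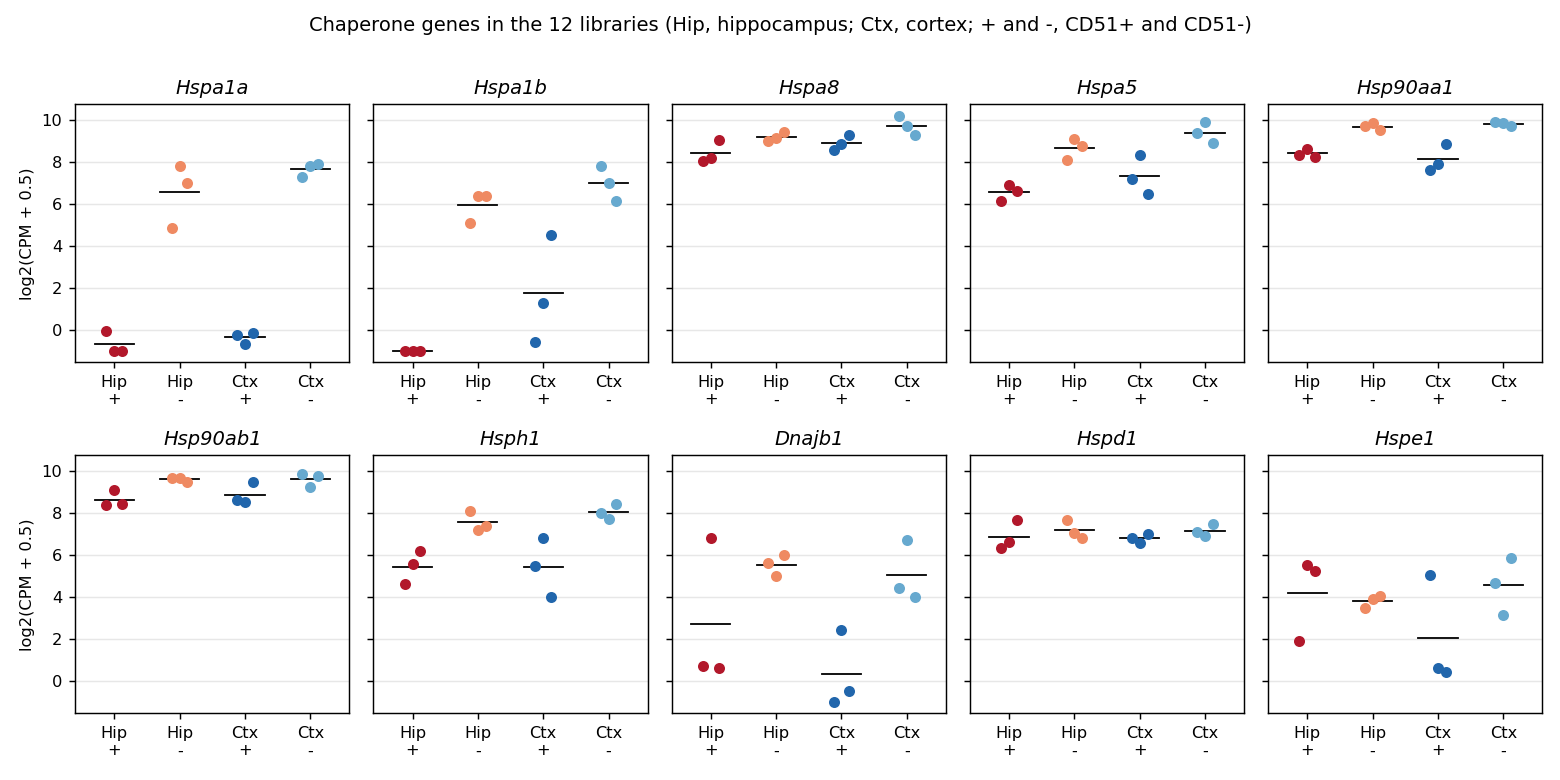
Level of each chaperone gene in each of the 12 libraries, as log2(CPM + 0.5) with TMM-scaled library sizes, in hippocampus CD51+, hippocampus CD51-, cortex CD51+ and cortex CD51- libraries from left to right. Points are libraries and bars are group means of the log2 values. Hspa1a lies near the bottom of the scale in all 6 CD51+ libraries and far above it in all 6 CD51- libraries, while the Hspd1 groups overlap.

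Summed over the 10 genes, the level was 1088 to 1643 CPM in hippocampus CD51+ libraries and 3013 to 3428 CPM in hippocampus CD51- libraries. In cortex it was 1296 to 2040 CPM in CD51+ libraries and 3670 to 4499 CPM in CD51- libraries. Hspa8, Hspa5, Hsp90aa1 and Hsp90ab1 together made up 75.7 to 91.8% of that sum in every library. Hspa1a and Hspa1b together made up at most 0.0422% of it in hippocampus CD51+ libraries, against 2.06 to 8.77% in hippocampus CD51- libraries. In cortex their share was 0.0389 to 1.12% in CD51+ libraries, against 8.29 to 8.56% in CD51- libraries. The libraries are bulk samples, so fewer cells with a transcript and less of it per cell cannot be told apart.

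Other features of the libraries moved with the CD51 class. Immediate early genes such as Egr1, Egr3 and Atf3 encode transcription factors made within minutes of a stimulus or of tissue handling. Of the 18 listed, 17 were called lower in CD51+ libraries averaged over the regions. This list, like the cell type lists below, was chosen with earlier results of these data known, so its count is descriptive. Klf2 was at 0 in both CD51+ groups and Egr2 in the hippocampus CD51+ group. The summed level of the list was 191 to 537 CPM in hippocampus CD51+ libraries and 7303 to 16080 CPM in hippocampus CD51- libraries. In cortex it was 165 to 206 CPM in CD51+ libraries and 14200 to 20220 CPM in CD51- libraries. These genes of recent stimulation were thus low in all 6 CD51+ libraries, with no overlap of the sums. The 12 microglia markers summed to 205 to 1573 CPM in hippocampus CD51+ libraries, against 5195 to 7571 CPM in hippocampus CD51- libraries. They summed to 336 to 1004 CPM in cortex CD51+ libraries, where Aif1 was at 0, against 8124 to 11230 CPM in cortex CD51- libraries. The 9 oligodendrocyte markers summed to 1140 to 4841 CPM in hippocampus CD51+ libraries, against 6804 to 37500 CPM in hippocampus CD51- libraries. They summed to 2716 to 2840 CPM in cortex CD51+ libraries, where Mag was at 0, against 32760 to 63440 CPM in cortex CD51- libraries. Both glial sums were lower in every CD51+ library than in any CD51- library of the same region. Of these 2 lists, 11 of the 12 microglia and 4 of the 9 oligodendrocyte markers were called lower averaged over the regions. Among other lists, 4 of 4 tested markers of other leukocytes, 1 of 3 of oligodendrocyte precursors, 1 of 2 of endothelium and 1 of 5 of ependyma and choroid plexus were called lower, and 1 of 8 of neurons and 1 of 3 of pericytes and smooth muscle higher. In the same comparison 13.9% of all tested genes were called lower and 8.87% higher. A single call in so short a list is therefore not read as a result about a cell type. The neuron markers summed to 587 to 836 CPM in hippocampus CD51+ libraries, against 64.7 to 320 CPM in hippocampus CD51- libraries. In cortex they summed to 499 to 742 CPM in CD51+ libraries, against 187 to 384 CPM in CD51- libraries, so the neuron sum was higher in every CD51+ library. The ependyma and choroid plexus markers summed to 449 to 2076 CPM in hippocampus CD51+ and 1256 to 5587 CPM in hippocampus CD51- libraries. Their cortex sums were lower, at 24.4 to 83.1 CPM in CD51+ and 58.2 to 436 CPM in CD51- libraries. The fibroblast markers summed to at most 35.7 CPM in any library. The parts that these cells, the handling of the tissue and the mitochondrial share play in the chaperone differences were not tested. With mitochondrial genes left out of the counts before scaling, 6 of the 10 chaperone genes were called lower averaged over the regions. They were the 5 named above and Hsp90ab1, the last just under the threshold (edgeR adjusted p = 0.0499). In that setting 1796 of all 12540 tested genes were called lower and 1067 higher.

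Hspa1a and Hspa1b encode the stress-inducible HSP70 of the cytosol, and both were called lower in CD51+ libraries in each region. Hspa1a (ENSMUSG00000091971.3) lies at chr17:34969190-34972156 and Hspa1b (ENSMUSG00000090877.3) at chr17:34956436-34959238 of mm10, both on the minus strand and 9951 bases apart. Their transcripts share long stretches: 38.1% of the 150-base windows of the Hspa1a transcript are also in Hspa1b, and 40.5% of those of Hspa1b are in Hspa1a. Because only primary alignments were counted, reads from such stretches can be credited to either gene, while the sum of the 2 does not depend on where they were placed. Their promoters are nearly the same too, with the same base at 296 of 300 positions (98.7%), from 250 bases before the start site to 50 after it. Both are printed because both genes were called lower in each region. They are RefSeq sequences of GRCm38.p6, the build also called mm10, read 5′ to 3′ on the minus strand, Hspa1a at chr17:34972107-34972406 and Hspa1b at chr17:34959189-34959488. Capitals mark the match to a heat shock element of 2 units, GAANNTTC or TTCNNGAA on either strand.
Hspa1a: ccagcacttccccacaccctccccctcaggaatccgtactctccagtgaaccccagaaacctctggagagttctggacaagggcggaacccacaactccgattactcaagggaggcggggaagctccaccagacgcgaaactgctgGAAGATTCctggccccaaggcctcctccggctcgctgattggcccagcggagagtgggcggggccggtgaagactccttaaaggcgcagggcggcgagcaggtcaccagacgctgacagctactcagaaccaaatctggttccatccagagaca
Hspa1b: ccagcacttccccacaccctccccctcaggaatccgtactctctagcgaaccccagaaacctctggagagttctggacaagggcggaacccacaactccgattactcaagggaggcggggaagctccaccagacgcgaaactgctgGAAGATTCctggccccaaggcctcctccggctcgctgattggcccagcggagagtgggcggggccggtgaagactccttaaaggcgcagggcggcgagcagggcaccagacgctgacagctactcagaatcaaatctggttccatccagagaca
The match begins at position -104 in each. Negative positions count bases back from the start site, positive ones count the start site as the first, and no base is numbered 0. Such a match was present in 15.1% of the 32817 promoter windows of the RefSeq table.

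Hspa1a had 2, 0 and 0 counts in hippocampus CD51+ libraries, against 345, 2360 and 1389 counts in hippocampus CD51- libraries. Hspa1b had no count in the 3 hippocampus CD51+ libraries, against 410, 878 and 892 counts in hippocampus CD51- libraries. The inducible genes were thus at or next to 0 in every hippocampus CD51+ library, and the classes did not overlap. The sum of both was 0.459, 0 and 0 CPM in hippocampus CD51+ libraries and 62.0, 301 and 207 CPM in hippocampus CD51- libraries. Pooled over libraries, Hspa1a was 1071-fold lower in hippocampus CD51+ than in hippocampus CD51- libraries, with a 95% exact interval of 296 to 8847 that covers counting error only. Hspa1b was at least 380-fold lower, with 3 counts over the group as the floor. Both passed the test in hippocampus (edgeR adjusted p = 0.000207 for Hspa1a and 0.00162 for Hspa1b) and averaged over the regions (3.76e-07 and 8.79e-05). No fitted fold is given where a group holds so few counts.

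In cortex, Hspa1a had 2, 1 and 2 counts in CD51+ libraries, against 1801, 1863 and 1641 counts in CD51- libraries. Hspa1b had 1, 15 and 111 counts in cortex CD51+ libraries, against 2618, 1042 and 475 counts in cortex CD51- libraries. The CD51- libraries were therefore high for both genes, and among the CD51+ libraries replicate 3 stood above the others for Hspa1b, though still below every CD51- library. That library held 22.5 CPM of Hspa1b and 0.406 CPM of Hspa1a. Hspa1a changed by -9.44 ± 1.32 log2 units in cortex (SE, edgeR adjusted p = 0.000118). Hspa1b changed by -4.08 ± 1.31 log2 units (edgeR adjusted p = 0.0471). The Hspa1b call was lost when any of cortex CD51+ replicates 1 and 2, cortex CD51- replicates 1 and 2 and hippocampus CD51- replicate 2 was left out, with adjusted p between 0.0574 and 0.128. The pooled counts of both genes were 49.4-fold lower in cortex CD51+ than in cortex CD51- libraries (95% exact interval 41.6 to 59.1). Of the 132 CD51+ counts in that ratio 113 came from replicate 3, and without that library it was 253-fold (95% exact interval 162 to 420, an alternative chosen after seeing the data).

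Within CD51+ cells, Hspa1b had 0 counts in the 3 hippocampus libraries together and 127 counts in the 3 cortex libraries, of which 111 came from 1 library. Hippocampus against cortex averaged over the classes gave an edgeR adjusted p of 0.0693 for Hspa1b. The difference of the CD51 effect between hippocampus and cortex gave 0.163. For Hspa1b DESeq2 called both (adjusted p = 0.000648 and 0.0264), and limma-voom called neither (0.226 and 0.622). Without cortex CD51+ replicates 1 or 2 or cortex CD51- replicate 3 edgeR called Hspa1b between the regions as well (adjusted p = 0.0197, 0.0484 and 0.0245). For Hspa1a the edgeR adjusted p was 0.669 between regions and 0.989 for the difference of the effects.

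Hspa8 encodes the constitutive HSP70 of the cytosol, which also strips clathrin from vesicles. Its gene (ENSMUSG00000015656.17) lies at chr9:40800984-40810087. Its level was 265, 288 and 532 CPM in hippocampus CD51+ libraries, against 512, 557 and 691 CPM in hippocampus CD51- libraries. The cortex levels were 382, 453 and 612 CPM in CD51+ libraries, against 1151, 825 and 627 CPM in CD51- libraries. The classes overlapped in hippocampus and met without overlap in cortex. The fold changes of Hspa8 on the log2 scale were -0.70 ± 0.51 in hippocampus and -0.85 ± 0.51 in cortex, with adjusted p of 0.527 and 0.262 by edgeR. Averaged over the regions it was -0.77 ± 0.36 (edgeR adjusted p = 0.126, 95% interval -1.48 to -0.07), and limma-voom called it (adjusted p = 0.0221).

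The inducible and the constitutive HSP70 genes could be set against each other within a library, a ratio that no scaling between libraries touches. Hspa1a and Hspa1b together made up 0 to 0.17% of the counts of the 3 HSP70 genes in hippocampus CD51+ libraries, against 10.80 to 35.05% in hippocampus CD51- libraries. In cortex they made up 0.13, 0.45 and 3.61% in CD51+ libraries, against 24.47, 29.67 and 32.99% in CD51- libraries. Every CD51+ library lay below every CD51- library. The log2 ratio, with 1 count added to each side, averaged -10.43 ± 1.62 in hippocampus CD51+ and -1.89 ± 1.09 in hippocampus CD51- libraries, and -7.19 ± 2.26 in cortex CD51+ and -1.30 ± 0.31 in cortex CD51- libraries (SD, n = 3 each). Hippocampus CD51+ replicates 2 and 3 held 0 counts of Hspa1a and Hspa1b, so there the added count and the Hspa8 count set the ratio. An exact two-sided permutation test of the class labels within regions gave a difference of -7.22 and p = 0.005, the smallest p that 400 arrangements allow, or 0.015 after adjustment over the 6 ratio tests. Between regions the ratio differed by -1.92 (exact permutation p = 0.075, adjusted p = 0.15), and by -2.17 without hippocampus CD51- replicate 2, where it passed the test (adjusted p = 0.04). The size of this region difference hangs on the added count: over all 12 libraries it was -2.25 with 0.5 and -1.16 with 5 in place of 1.

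**Figure D2:**
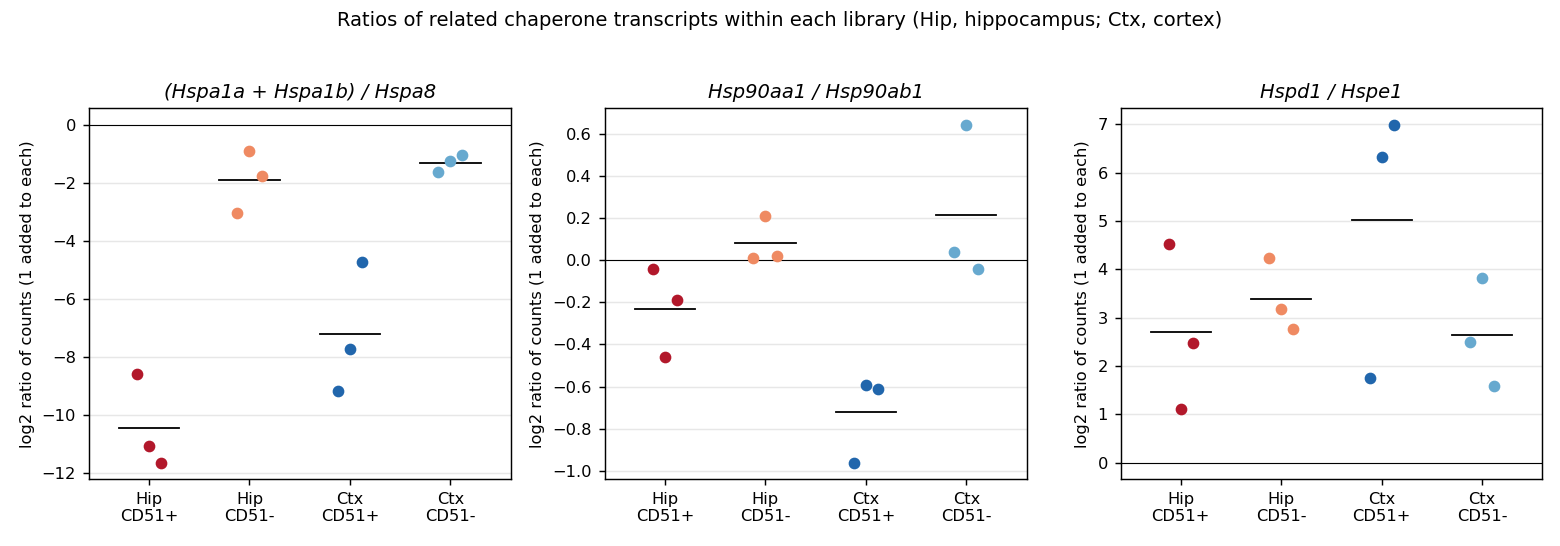
Log2 ratio of the counts of related chaperone transcripts within each library, with 1 count added to each side, for Hspa1a plus Hspa1b over Hspa8, Hsp90aa1 over Hsp90ab1 and Hspd1 over Hspe1. Points are libraries and bars are group means, with hippocampus CD51+, hippocampus CD51-, cortex CD51+ and cortex CD51- from left to right. The HSP70 ratio averages -10.43 and -7.19 in the CD51+ groups, against -1.89 and -1.30 in the CD51- groups. In hippocampus CD51+ replicates 2 and 3, with 0 counts of Hspa1a and Hspa1b, the added count sets it.

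Hsp90aa1 and Hsp90ab1 encode the alpha and beta forms of cytosolic HSP90, of which alpha is the more stress-inducible. Hsp90aa1 (ENSMUSG00000021270.13) lies at chr12:110690605-110702728 and Hsp90ab1 (ENSMUSG00000023944.14) at chr17:45567775-45573271. Hsp90aa1 was at 318, 395 and 300 CPM in hippocampus CD51+ libraries, against 822, 915 and 719 CPM in hippocampus CD51- libraries. Cortex levels were 197, 240 and 464 CPM in CD51+ libraries, against 949, 918 and 825 CPM in CD51- libraries. The classes did not overlap in either region. Hsp90aa1 fell by 1.43 ± 0.36 log2 units in CD51+ libraries over both regions (SE, edgeR adjusted p = 0.00668). In cortex its log2 fold change was -1.58 ± 0.51 (edgeR adjusted p = 0.0455), a call that was lost when any library other than cortex CD51+ replicate 3 or cortex CD51- replicate 3 was left out, with adjusted p between 0.0557 and 0.164. In hippocampus it was -1.28 ± 0.50 (edgeR adjusted p = 0.160).

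Hsp90ab1 was at 326, 544 and 344 CPM in hippocampus CD51+ libraries, against 815, 792 and 711 CPM in hippocampus CD51- libraries. Cortex levels of Hsp90ab1 were 385, 363 and 708 CPM in CD51+ libraries, against 926, 591 and 848 CPM in CD51- libraries. The classes were apart in hippocampus and overlapped in cortex. Its log2 fold change averaged over the regions was -0.82 ± 0.35 and did not pass the test (edgeR adjusted p = 0.0981, 95% interval -1.51 to -0.13). Hsp90ab1 was called by limma-voom (adjusted p = 0.0107) and by edgeR with mitochondrial genes left out (0.0499).

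The balance of the HSP90 forms also differed. Hsp90aa1 made up 42.11 to 49.36% of the counts of the pair in hippocampus CD51+ libraries, against 50.21 to 53.62% in hippocampus CD51- libraries. In cortex it made up 33.89 to 39.88% in CD51+ libraries, against 49.29 to 60.85% in CD51- libraries. The log2 ratio of alpha to beta averaged -0.23 ± 0.21 in hippocampus CD51+ and 0.08 ± 0.11 in hippocampus CD51- libraries, and -0.72 ± 0.21 in cortex CD51+ and 0.21 ± 0.37 in cortex CD51- libraries (SD, n = 3 each). The class difference of -0.62 gave p = 0.005 in the exact permutation test, again the smallest possible, and 0.015 after adjustment. The ratio did not pass between regions (difference 0.18, exact permutation p = 0.31, adjusted p = 0.465).

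Hspa5 encodes BiP, the HSP70 of the ER, which also holds the sensors of the unfolded protein response in check. The gene (ENSMUSG00000026864.13) lies at chr2:34771970-34777547. Its promoter is printed because it holds the textbook ER stress element, in capitals, which is CCAAT followed by CCACG after a gap of 9 bases, on either strand. It is the RefSeq sequence of GRCm38.p6, chr2:34771840-34772139, plus strand.
Hspa5: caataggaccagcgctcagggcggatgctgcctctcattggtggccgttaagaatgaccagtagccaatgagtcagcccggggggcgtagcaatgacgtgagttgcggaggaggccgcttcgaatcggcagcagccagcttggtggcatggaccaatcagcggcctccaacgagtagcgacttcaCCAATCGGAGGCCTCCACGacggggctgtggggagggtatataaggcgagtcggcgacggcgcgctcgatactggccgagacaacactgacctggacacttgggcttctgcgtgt
The element begins at position -65 and was present in 0.119% of all promoter windows. Its first letters are also 1 of the 4 CCAAT boxes of this window (CCAAT or ATTGG), a motif that 37.4% of windows hold.

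Hspa5 was at 70.4, 120 and 98.2 CPM in hippocampus CD51+ libraries, against 270, 542 and 424 CPM in hippocampus CD51- libraries. Cortex levels of Hspa5 were 145, 315 and 88.1 CPM in CD51+ libraries, against 664, 948 and 477 CPM in CD51- libraries. The classes did not overlap in either region. Over both regions Hspa5 fell by 2.02 ± 0.43 log2 units, or 4.04-fold, in CD51+ libraries (edgeR adjusted p = 0.002). The fold changes of the regions were close, -2.10 ± 0.61 in hippocampus (edgeR adjusted p = 0.0583) and -1.93 ± 0.61 in cortex (0.042), and their difference was -0.17 with a 95% interval of -1.80 to 1.46. The cortex call was lost when any of cortex CD51+ replicates 1 and 3, cortex CD51- replicates 1 and 2, hippocampus CD51+ replicates 2 and 3 and hippocampus CD51- replicates 1 and 2 was left out, with adjusted p between 0.052 and 0.151. In hippocampus DESeq2 called it (adjusted p = 0.025).

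Hsph1 encodes HSP110, which swaps the nucleotide on HSP70 and helps it dissolve aggregates. The gene (ENSMUSG00000029657.15) lies at chr5:149614287-149636376. Its promoter is printed because it holds a heat shock element of 3 units, alternating GAA and TTC with 2 bases between neighbours, on either strand, found in 0.603% of windows. RefSeq gives 2 overlapping windows, and this is the one at chr5:149636287-149636586 of GRCm38.p6, minus strand. Capitals mark the heat shock elements of 2 and of 3 units.
Hsph1: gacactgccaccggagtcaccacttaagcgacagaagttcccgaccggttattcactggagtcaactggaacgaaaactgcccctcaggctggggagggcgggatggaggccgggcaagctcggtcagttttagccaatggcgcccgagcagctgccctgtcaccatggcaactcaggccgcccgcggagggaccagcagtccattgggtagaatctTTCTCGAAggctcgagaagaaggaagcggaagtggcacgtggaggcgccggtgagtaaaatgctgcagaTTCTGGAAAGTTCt
The 3-unit element begins at position 37 of this window and includes 2 overlapping 2-unit matches, and a further 2-unit match begins at position -33.

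Hsph1 was at 23.6, 45.9 and 71.9 CPM in hippocampus CD51+ libraries, against 271, 145 and 164 CPM in hippocampus CD51- libraries. Cortex levels of Hsph1 were 43.8, 109 and 15.2 CPM in CD51+ libraries, against 255, 206 and 338 CPM in CD51- libraries. All CD51+ libraries lay below all CD51- libraries of their region. Hsph1 fell by 2.14 ± 0.54 log2 units, or 4.41-fold, in CD51+ libraries over both regions (edgeR adjusted p = 0.00699). Within a region it did not pass the test, at -2.03 ± 0.76 in hippocampus (edgeR adjusted p = 0.14) and -2.25 ± 0.76 in cortex (0.0569). DESeq2 and limma-voom called it in cortex (adjusted p = 0.0126 and 0.0308).

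Dnajb1 encodes the J-domain protein, also called HSP40, that delivers clients to the inducible HSP70. The gene (ENSMUSG00000005483.10) lies at chr8:83608193-83612653. It had 5, 817 and 6 counts in hippocampus CD51+ libraries, against 589, 339 and 687 counts in hippocampus CD51- libraries. Replicate 2 of the hippocampus CD51+ group, at 110 CPM, thus lay above all 3 CD51- libraries of its region, while the others were near 1 CPM. The same library had no count of Hspa1a or Hspa1b. In cortex Dnajb1 had 0, 38 and 1 counts in CD51+ libraries, against 246, 859 and 104 counts in CD51- libraries, with no overlap. Its log2 fold change was -0.34 ± 1.54 in hippocampus (edgeR adjusted p = 0.952) and -4.74 ± 1.81 in cortex (0.0805). Averaged over the regions it was -2.54 ± 1.15 and did not pass the test (edgeR adjusted p = 0.117). Without hippocampus CD51+ replicate 2 it was -5.08 with an adjusted p of 0.0123, and without cortex CD51+ replicate 2 the adjusted p was 0.0219. In cortex, leaving out cortex CD51+ replicate 2 gave an edgeR adjusted p of 0.0281. The group then holds 0 and 1 counts, so no fold is given. DESeq2 and limma-voom called Dnajb1 averaged over the regions (adjusted p = 0.0414 and 0.012) and in cortex (0.00636 and 0.0289). The 2 RefSeq windows of Dnajb1 held none of the heat shock or ER stress element letters searched.

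Hspd1 and Hspe1 encode HSP60 and HSP10, the barrel and the lid of the mitochondrial chaperonin, and are a head-to-head pair that shares a promoter. Hspd1 (ENSMUSG00000025980.14) lies at chr1:55077835-55088243 on the minus strand and Hspe1 (ENSMUSG00000073676.4) at chr1:55088132-55091307 on the plus strand. They share 112 exonic bases, and counting without strand cannot assign reads there. The same stretch of heat shock elements lies in the windows of both genes. It is printed as the Hspe1 window of RefSeq, GRCm38.p6, chr1:55087898-55088197, plus strand, with the heat shock elements of 2 and 3 units in capitals.
Hspe1: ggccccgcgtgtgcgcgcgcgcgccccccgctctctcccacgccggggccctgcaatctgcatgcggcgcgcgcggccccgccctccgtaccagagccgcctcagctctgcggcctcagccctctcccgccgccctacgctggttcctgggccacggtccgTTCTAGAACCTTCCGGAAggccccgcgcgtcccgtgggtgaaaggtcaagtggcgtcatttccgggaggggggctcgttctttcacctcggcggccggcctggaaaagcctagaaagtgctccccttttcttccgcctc
The run in capitals holds 2 overlapping elements of 3 units, at positions -89 and -84. Read from the other strand, they begin at positions -144 and -139 of 1 of the 2 Hspd1 windows.

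Hspd1 was at 78.9, 96.7 and 203 CPM in hippocampus CD51+ libraries, against 202, 130 and 111 CPM in hippocampus CD51- libraries. In cortex it was at 110, 92.5 and 128 CPM in CD51+ libraries, against 136, 119 and 174 CPM in CD51- libraries. The classes overlapped in both regions. Averaged over the regions, the log2 fold change of Hspd1 was -0.30 ± 0.47 (edgeR adjusted p = 0.697), with a 95% interval of -1.21 to 0.61. Hspe1 had 14, 334 and 217 counts in hippocampus CD51+ libraries, against 129, 155 and 178 counts in hippocampus CD51- libraries. In cortex it had 195, 8 and 4 counts in CD51+ libraries, against 288, 69 and 396 counts in CD51- libraries. Single libraries thus spread over a wide range within each CD51+ group. The log2 fold change of Hspe1 was 1.04 ± 1.5 in hippocampus and -1.38 ± 1.51 in cortex, and averaged over the regions it was -0.17 ± 1.05 (edgeR adjusted p = 0.943, 95% interval -2.23 to 1.89). The ratio of Hspd1 to Hspe1 differed by 0.85 log2 units between the classes (exact permutation p = 0.44, adjusted p = 0.5) and by -0.78 between the regions (exact permutation p = 0.5, adjusted p = 0.5).

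**Figure D3:**
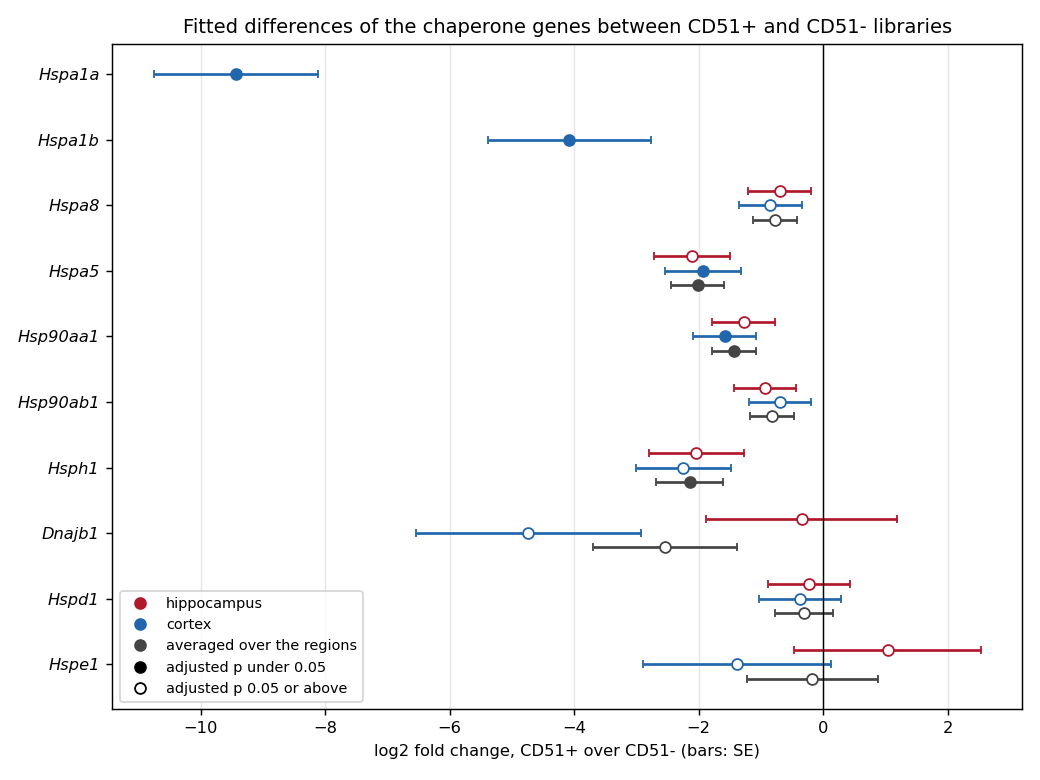
Fitted log2 fold change of each chaperone gene, CD51+ over CD51-, with its SE, in hippocampus, in cortex and averaged over the regions. Filled points have an adjusted p under 0.05. Hspa1a and Hspa1b are drawn for cortex only, at -9.44 and -4.08, because the other comparisons include a group with 2 or fewer counts. Hspa5, Hsp90aa1 and Hsph1 lie left of 0 in both regions, and Hspe1 lies on either side of it.

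The level of a transcript per kilobase of exon can be compared between genes. Hsp90ab1 had the highest mean in all 4 groups, at 135 ± 40.3 CPM per kilobase in hippocampus CD51+, 258 ± 18.2 in hippocampus CD51-, 162 ± 64.5 in cortex CD51+ and 263 ± 58.5 in cortex CD51- libraries (SD, n = 3 each). The next gene in that order was Hsp90aa1 at 86.0 ± 12.8 in hippocampus CD51+, 208 ± 24.9 in hippocampus CD51- and 228 ± 16.5 in cortex CD51- libraries, and Hspa8 at 112 ± 27.4 in cortex CD51+ libraries. Only in hippocampus CD51- libraries did the ranges of mean ± SD not overlap. Within single libraries Hsp90ab1 lay above that next gene in all but cortex CD51- replicate 2 (197 against 234 CPM per kilobase). Hspa5 lay below Hspd1 in hippocampus CD51+ libraries, at 22.7 ± 5.84 against 47.7 ± 25.3 CPM per kilobase, and above it in hippocampus CD51- libraries, at 97.5 ± 32.3 against 55.8 ± 18.1, with overlapping ranges of mean ± SD in both. Library by library, Hspa5 lay below Hspd1 in each hippocampus CD51+ library (16.7, 28.3 and 23.2 against 29.9, 36.6 and 76.7). Among hippocampus CD51- libraries it lay above Hspd1 in replicates 2 and 3 and below it in replicate 1 (63.8 against 76.3). In cortex Hspa5 and Hspd1 were level in CD51+ libraries, at 43.2 ± 28.0 and 41.7 ± 6.73 CPM per kilobase, while in CD51- libraries Hspa5 stood at 165 ± 56.1 and Hspd1 at 54.1 ± 10.6. Hspa1a was at 0.0515 ± 0.0893 in hippocampus CD51+, 41.9 ± 32.2 in hippocampus CD51-, 0.0977 ± 0.0487 in cortex CD51+ and 69.0 ± 15.7 CPM per kilobase in cortex CD51- libraries, and the last value overlapped that of Hspd1 within the SD.

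Hippocampus and cortex were then compared over both classes. None of the 10 genes passed the edgeR test between regions, where 0.19% of all tested genes did (0.0317% lower and 0.159% higher in hippocampus). Hspa1b alone had an unadjusted p under 0.05, against 1906 of all 12613 tested genes. DESeq2 called 1 of the 10 (Hspa1b) and limma-voom 0, against 731 and 53 of all tested genes. Hspa5 was nearest among the genes with a fitted fold, at -0.84 ± 0.42 log2 units, hippocampus over cortex (edgeR adjusted p = 0.348). For Hsp90aa1 the difference was 0.02 ± 0.35, with a 95% interval of -0.67 to 0.70. For Dnajb1 it was 2.23 ± 1.14 (edgeR adjusted p = 0.366), and -0.32 without hippocampus CD51+ replicate 2. No gene of the 10 passed the edgeR test for a difference of the CD51 effect between regions, and neither did any of all 12613 genes (0.0%). In that test 1583 of all genes had an unadjusted p under 0.05, among the 10 only Hspa1b, and DESeq2 called 522 genes, among the 10 again only Hspa1b, while limma-voom called 0.

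Beyond the 10 genes, 107 further chaperone genes and their regulators stood on 9 lists, some on more than 1, and 97 of them were tested. Averaged over the regions 2 of the 97 were called higher and 6 lower in CD51+ libraries by edgeR, against 8.87% and 13.9% of all tested genes, with a median log2 fold change of -0.22. In cortex 4 were called lower, against 6.27% of all tested genes, and in hippocampus 1, against 2.7%. Of the 7 tested HSP70 and HSP110 genes outside the 10, Hspa4l, an HSP110 relative, was called higher, at 290 ± 88.6 CPM in hippocampus CD51+ and 103 ± 67.6 in hippocampus CD51-, and at 157 ± 93.9 in cortex CD51+ and 54.4 ± 27.0 CPM in cortex CD51- libraries (log2 fold change 1.51 ± 0.53, edgeR adjusted p = 0.0406). That call was lost when any of 9 libraries was left out (all but cortex CD51+ replicate 3, cortex CD51- replicate 3 and hippocampus CD51- replicate 2), with adjusted p between 0.056 and 0.122, and with no filter on low counts (0.0874).

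Of the 9 tested HSP70 co-chaperones, 1 was called higher and 1 lower, against 8.87% and 13.9% of all tested genes. Single calls in such short lists are not read as results about the lists. Bag3, which hands HSP70 clients to autophagy and is itself a heat shock gene, was at 7.27 ± 6.14 CPM in hippocampus CD51+ and 68.0 ± 15.9 in hippocampus CD51-, and at 14.7 ± 12.1 in cortex CD51+ and 66.0 ± 29.5 CPM in cortex CD51- libraries. It fell by 2.70 ± 0.86 log2 units averaged over the regions (edgeR adjusted p = 0.0272), and without cortex CD51+ replicate 3, hippocampus CD51+ replicates 1 or 2 or hippocampus CD51- replicate 2 the adjusted p was 0.0511 to 0.0616. Hspbp1, an exchange factor of HSP70, was called higher, with 270 counts in hippocampus CD51+ and 126 in hippocampus CD51-, and with 34 in cortex CD51+ and 0 in cortex CD51- libraries. Its adjusted p was 0.0429, and it was 0.0548 to 0.107 when any library other than cortex CD51+ replicate 3 was left out. Hspbp1 was not called by limma-voom (0.0799) or with no filter (0.0968).

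Among the 14 tested HSP90 paralogs and co-chaperones, 1 was called lower and none higher, against 13.9% and 8.87% of all tested genes. This was Fkbp5, a co-chaperone of HSP90 at the glucocorticoid receptor and a target of that receptor. It had 23 counts in hippocampus CD51+ and 1020 in hippocampus CD51- libraries, and 0 in cortex CD51+ and 647 in cortex CD51- libraries, at least 149-fold lower in cortex with 3 counts over the group as the floor (edgeR adjusted p = 0.00505 averaged over the regions). Hsp90b1, the HSP90 of the ER, did not pass the test, at 473 ± 76.1 CPM in hippocampus CD51+ and 509 ± 47.1 in hippocampus CD51-, and at 473 ± 100 in cortex CD51+ and 630 ± 24.2 CPM in cortex CD51- libraries. Of the 20 tested J-domain proteins, 1 was called lower and none higher, against the same shares of all tested genes. This was Dnaja1, a cytosolic partner of Hspa8. Dnaja1 was at 61.7 ± 12.0 CPM in hippocampus CD51+ and 292 ± 67.9 CPM in hippocampus CD51- libraries. In cortex it was at 62.0 ± 32.2 CPM in CD51+ and 301 ± 39.4 CPM in CD51- libraries. Its log2 fold change was -2.26 ± 0.45 (edgeR adjusted p = 0.00116).

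Of the 18 tested ER chaperones and genes of the unfolded protein response, 3 were called lower and none higher by edgeR, against 13.9% and 8.87% of all tested genes. DESeq2 called the same 3 lower and the disulfide isomerase Pdia4 higher, and limma-voom called them lower and the lectin chaperone Canx higher. Atf4, the transcription factor of the integrated stress response, was at 6.59 ± 6.34 CPM in hippocampus CD51+ and 127 ± 70.4 in hippocampus CD51-, and at 14.6 ± 10.5 in cortex CD51+ and 131 ± 52.5 CPM in cortex CD51- libraries (log2 fold change -3.71 ± 0.72, edgeR adjusted p = 0.000802). Xbp1, the factor whose mRNA Ern1 splices in ER stress, changed by -3.35 ± 1.0 log2 units (edgeR adjusted p = 0.019, and 0.0527 without cortex CD51- replicate 2). Herpud1, which acts in ER-associated degradation, changed by -3.28 ± 1.11 log2 units (edgeR adjusted p = 0.0361). Without cortex CD51+ replicates 2 or 3, cortex CD51- replicate 1, hippocampus CD51+ replicates 1 or 3 or hippocampus CD51- replicate 3 its adjusted p was 0.0613 to 0.0739.

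Some lists had no edgeR call averaged over the regions, where 22.7% of all tested genes were called. These were the 4 tested small heat shock proteins, the 3 tested heat shock factors and the 12 mitochondrial chaperones and proteases. The 14 tested subunits of the chaperonin TRiC and prefoldin had none either. At an unadjusted p under 0.05 there were 1, 1, 0 and 4 genes of these lists in that order, and 4442 of all 12613 tested genes. DESeq2 called 1, 2, 0 and 2 of them, and 3674 of all tested genes. The calls of limma-voom were 1, 0, 0 and 1, and 3065 of all tested genes. The small heat shock protein gene Hspb8 was called higher by DESeq2 (adjusted p = 0.0126) and limma-voom (0.0239), and had an edgeR adjusted p of 0.0592. In cortex Hspb8 had 106 counts in CD51+ and 0 in CD51- libraries. In hippocampus it had 165 counts in CD51+ and 281 in CD51- libraries. Scaled for library size, these were 9.2 ± 0.645 and 7.71 ± 12.8 CPM, and the classes did not differ there (log2 fold change 0.25 ± 2.07, edgeR adjusted p = 0.975). Hsbp1, which encodes a protein that binds heat shock factor, had a log2 fold change of 1.72 ± 0.69 (edgeR adjusted p = 0.0764), and DESeq2 called it (0.0486). Hsf1, the main factor of the heat shock response, was at 36.9 ± 29.9 CPM in hippocampus CD51+ and 9.83 ± 12.8 in hippocampus CD51-, and at 10.4 ± 14.3 in cortex CD51+ and 23.5 ± 20.9 CPM in cortex CD51- libraries. The log2 fold change of Hsf1 was 0.37 ± 1.12 (edgeR adjusted p = 0.862). Hsf2, its relative, had 2.37 ± 1.28 (edgeR adjusted p = 0.191) and was called by DESeq2 (0.0311), and the small heat shock protein gene Hspb6 had 0.72 ± 1.49 (0.782).

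**Figure D4:**
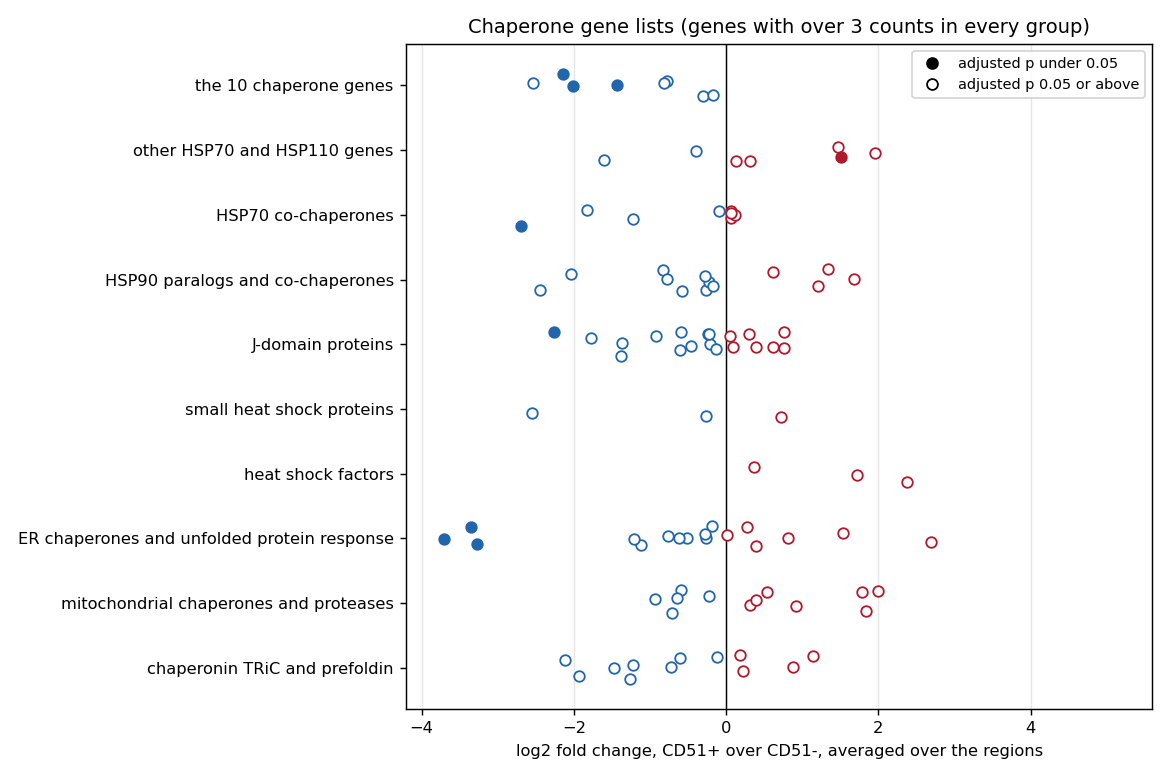
Log2 fold change, CD51+ over CD51- averaged over the regions, of the 98 tested genes among the 10 chaperone genes and the 9 further lists with more than 3 counts in every group, 1 row a list. Filled points have an adjusted p under 0.05. The 9 genes not drawn are Hspa1a, Hspa1b, Hspbp1, Fkbp5, Dnajb2, Hspb8, Sdf2l1, Pfdn4 and Pfdn6, of which the first 4 passed the test. The filled points left of 0 are Hspa5, Hsp90aa1, Hsph1, Bag3, Dnaja1, Atf4, Xbp1 and Herpud1, and the filled point right of it is Hspa4l.

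For Hspa1a plus Hspa1b, Hspa8 and Hspa5, the genes with the most similar pattern over the 12 libraries were sought after removing the group means, among 4845 other genes with a mean of at least 20 CPM. The values are descriptive, since libraries share depth and mitochondrial share and the best of many genes is always high. The closest to Hspa1a plus Hspa1b were Tmem135 (Pearson r = 0.955), Rhoh (0.931) and Zfp704 (0.910). The closest to Hspa8 were Vav2 (0.959), Arhgap1 (0.919) and Gm15459 (0.911), and the last is a pseudogene per RefSeq. The closest to Hspa5 were Pdzd8 (0.933), Dnajc21 (0.909) and Tmem218 (0.903).

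**Figure D5:**
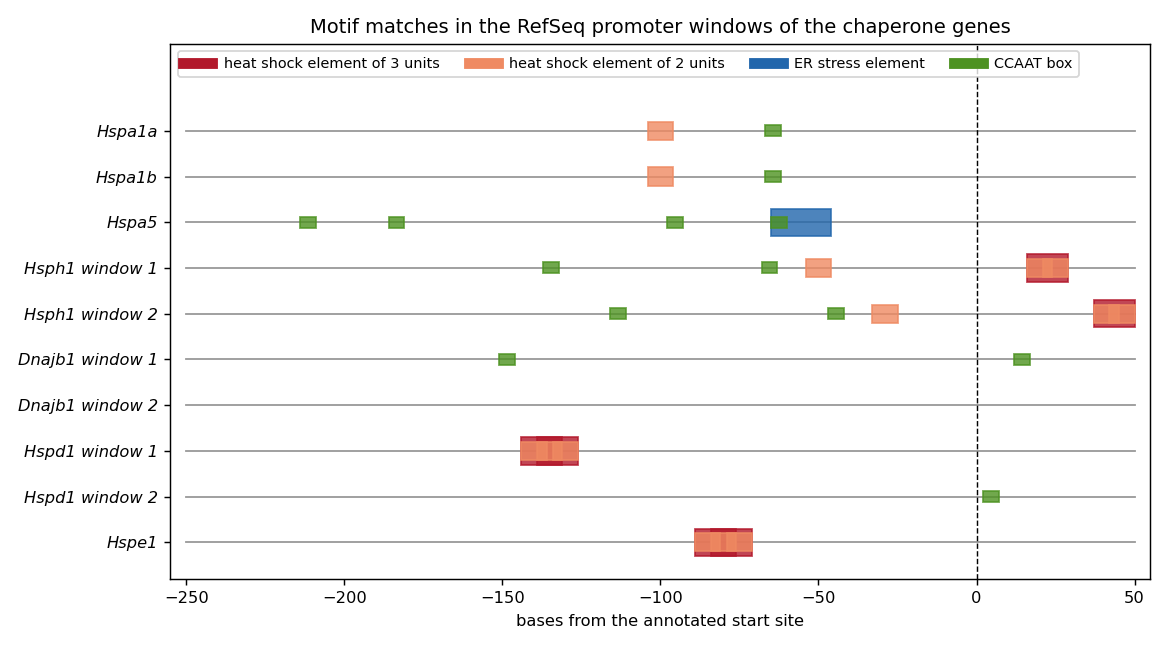
Matches to heat shock elements of 2 and 3 units, the ER stress element and CCAAT boxes in the 10 RefSeq promoter windows of 7 chaperone genes, drawn to scale by distance from the start site of each window (dashed line at 0). Boxes span the matched letters on either strand. The 2-unit elements of Hspa1a and Hspa1b begin at -104, the ER stress element of Hspa5 at -65, and the 3-unit elements lie in windows of Hsph1, Hspd1 and Hspe1.

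The promoter windows covered 7 of the 10 genes, with none for Hspa8, Hsp90aa1 and Hsp90ab1. Heat shock elements of 3 units stood before Hspd1 and Hspe1, which did not pass the test, and in Hsph1, which did. Hspa1a and Hspa1b, called in both regions, held only a 2-unit match of these letters. TATAAA, found in 13.6% of all windows, matched none of the 10. A match is a run of letters and not a measured binding site.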

How the data were processed

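RNA-seq libraries were made from 10 ng of RNA of sorted cells and sequenced as read pairs of 150 bases, per the labels' protocols. The deposited values are raw counts per gene, made per the file headers with featureCounts 2.0.4 over exons of GENCODE vM25, without strand and from primary alignments only. STAR, mm10 and DESeq2 1.40.2 are named in the submitters' processing notes. The Length column (another unit, bases of exon per gene in the deposited table) served for values per kilobase. Of 55401 gene IDs, 55141 got a symbol from a table of GENCODE vM21 names, in which Ddit3 fell on 2 rows and was not used.

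From the counts, genes were filtered with filterByExpr of edgeR 4.0.16 (minimum count 10, minimum total 15), scaled by TMM and fitted in 1 quasi-likelihood model of 4 groups over 12 libraries in R 4.3.3. There were 5 contrasts, each with Benjamini-Hochberg adjustment over 12613 genes at a threshold of 0.05. The common dispersion was 1.64. SE is the absolute log2 fold change over the square root of F, and 95% intervals of fold changes follow from it. Ratios of summed counts have exact 95% intervals for counting error. The procedure was tested on simulated data. The alternatives were DESeq2 1.42.0, limma-voom (limma 3.58.1), RLE and upper-quartile factors, no filter, a filter of 1 CPM in 3 libraries, robust dispersion, a replicate block, only the libraries of a region, mitochondrial genes left out, Hspa1a and Hspa1b summed, and each of 12 libraries left out. Ratios were repeated with pseudocounts of 0.5 and 5 in place of 1. Summing pseudogene rows into Hspd1 and Hspe1 was added after seeing the data, as was leaving cortex CD51+ replicate 3 out of the summed counts of Hspa1a and Hspa1b. Motif searches used RefSeq windows of GRCm38.p6, and figures used matplotlib 3.10.9.

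The 10 genes and all lists were chosen with earlier results of these data known. Named are all 10 genes, up to 3 genes per list by p in the averaged comparison, Hsf1, Hsf2 and Hsp90b1, the 3 most similar genes per pattern, and sums of marker lists. Not every gene the rule names is described. The other marker lists were neurons, other leukocytes, oligodendrocyte precursors, endothelium, pericytes and smooth muscle, fibroblasts, and ependyma and choroid plexus.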

Additional observations from a re-analysis of the deposited data

Results flagged for a closer look

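Rows of pseudogenes related to Hspd1 and Hspe1 lie outside the comparisons, and 2 of them are given because a CD51+ library held at least 10 counts and more than any CD51- library. A further row, Hspe1-ps1, had 1 count in hippocampus CD51+ replicate 2 and 0 in the other libraries. Hspe1-ps2 had 132 counts in cortex CD51+ replicate 2, against at most 5 counts in a CD51- library. Hspd1-ps4 had 48 counts in hippocampus CD51+ replicate 1, against at most 21 counts in a CD51- library. None of the 238 windows of 75 bases of the Hspe1-ps2 transcript is in Hspe1. In cortex CD51+ replicate 2 Hspe1 itself had 8 counts, and with its pseudogene rows added it was at 32.9, 18 and 1.22 CPM in cortex CD51+ libraries and at 24.3, 8.27 and 58.1 CPM in cortex CD51- libraries.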

How the results depend on the processing

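For the class difference, the direction of Hspa1a, Hspa1b, Hspa5, Hspa8, Hsp90aa1, Hsp90ab1 and Hsph1 held under every alternative run for them, as did the 5 calls averaged over the regions, which are 4 where Hspa1a and Hspa1b are summed. Genes called in hippocampus numbered 418, against 1429 with DESeq2, 885 with limma-voom and 636 with no filter, and in cortex 1428, against 3219 with DESeq2 and 2164 with limma-voom. Between regions 24 genes were called, against 731 with DESeq2, 53 with limma-voom, 292 with no filter and 112 with robust dispersion, and for the difference of effects 0, against 522, 0, 146 and 1. Of the 10 chaperone genes, limma-voom called 8 averaged over the regions, and upper-quartile factors and the fit of cortex alone called 1 in cortex. Summing Hspa1a and Hspa1b left 1 call in hippocampus, because it merges 2 genes. DESeq2, no filter and robust dispersion called 1 of the 10 between regions, and the first 2 of these called 1 for the difference of effects. The cause of the other shifts was not tested.

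Leaving out 1 library at a time gave 198 to 559 genes called in hippocampus (lowest without hippocampus CD51+ replicate 2), 879 to 1507 in cortex (lowest without cortex CD51+ replicate 3), 2112 to 3205 averaged over the regions, 11 to 69 between regions (lowest without hippocampus CD51- replicate 2, highest without cortex CD51- replicate 3) and 0 to 42 for the difference of effects (highest without cortex CD51- replicate 3). Of the 10 genes it left 2 to 3, 1 to 4, 5 to 6, 0 to 1 and 0 to 0 calls in the same order of comparisons. The log2 ratio of Hspa1a plus Hspa1b to Hspa8 then ran from -7.83 to -6.73 between classes and from -2.41 to -1.30 between regions, that of Hsp90aa1 to Hsp90ab1 from -0.68 to -0.51 and from 0.12 to 0.29, and that of Hspd1 to Hspe1 from 0.36 to 1.67 and from -1.60 to -0.29.

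Pseudocounts of 0.5 and 5 gave -7.63 and -6.02 for the class difference of the ratio of Hspa1a plus Hspa1b to Hspa8 and -2.25 and -1.16 for its region difference, with no call changed in the 6 ratio tests. The pseudocount sets that ratio where hippocampus CD51+ libraries had 0 counts.

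Signs that turned belonged to uncalled values. Dnajb1 in hippocampus ran from -5.44 to 0.24 (0.22 and 0.24 without hippocampus CD51+ replicates 1 and 3), and Hspd1 from -0.76 to 0.07 (0.02 and 0.07 without hippocampus CD51+ or CD51- replicate 1). Averaged over the regions, Hspe1 ran from -1.98 to 0.18, being 0.10, 0.08, 0.18 and 0.09 without cortex CD51+ replicates 2 and 3, cortex CD51- replicate 3 and hippocampus CD51+ replicate 1, and 0.13 with pseudogene rows summed. Hsf1 ran from -0.75 to 1.30 (-0.75, -0.01 and -0.05 without cortex CD51+ replicate 2, cortex CD51- replicate 3 and hippocampus CD51+ replicate 3), and Hspb6 from -1.47 to 3.54 (-1.47 and -0.10 without replicate 2 of cortex CD51+ and of hippocampus CD51+). Dnajb1 ran from -0.32 to 4.22 between regions and from -0.72 to 8.36 for the difference of effects, negative without hippocampus CD51+ replicate 2. These ranges include the fit without cortex CD51+ replicate 2, where that group holds 0 and 1 counts of Dnajb1 and its level is set by the floor.

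On the further chaperone lists, 8 genes were called averaged over the regions (18 with DESeq2, 4 to 9 with a library left out, lowest without hippocampus CD51+ replicate 1). In cortex there were 4 (16 with DESeq2, 8 with limma-voom, 2 in the fit of cortex alone, 0 to 4 with a library left out, 0 without cortex CD51+ replicate 2). In hippocampus there was 1 (5 with DESeq2, 3 with limma-voom, 2 with robust dispersion, the region alone or mitochondrial genes left out, 0 to 2 with a library left out). Upper-quartile factors moved the median log2 fold change of all genes from -0.22 to 0.01 in hippocampus and from -0.14 to 0.04 averaged over the regions.

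Deviations of same-numbered libraries from their group means correlated at -0.048 to 0.021, so no pairing by replicate number was seen. With 3 scattered libraries a group, such values cannot show whether same-numbered libraries came from the same animals. With the replicate block, 435 genes were called in hippocampus, 1260 in cortex and 2540 averaged over the regions, and 2, 4 and 6 of the 10 chaperone genes. Hsp90aa1 was then not called in cortex, Dnajb1 was called in cortex and averaged over the regions, the further lists had 2 calls in cortex, Hspa4l and Hspbp1 were not called averaged over the regions (adjusted p = 0.058 and 0.0867), Hspb8 was (0.0472), and Hspb6 was at -0.90. With 3 libraries a group and a common dispersion of 1.64, differences of low or scattered genes such as Dnajb1 and Hspe1 were poorly resolved.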
